A study of Mus musculus with 12 samples.

Results

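These results concern the messenger RNA of Ba/F3 cells that express human RPL10 with arginine 98 replaced by serine (R98S), compared with cells that express WT human RPL10. They were taken by their labels as the mRNA sequencing libraries, which are 6 of the 12 libraries of the series: R98S clones 11, 13 and 35 and WT clones 28, 29 and 36. The other 6 are the ribosome footprinting libraries (ribosome-protected fragments, RPF) of the same clones. Ba/F3 cells are labelled as mouse lymphoid cells and depend on interleukin-3 for growth. All 6 clones carried a human *RPL10* cDNA, WT or R98S, from a retroviral vector, together with an shRNA against the endogenous mouse *Rpl10*. Each clone was grown from a single cell and kept for its strong knock-down in qPCR, so that 1 library is 1 clone, and differences between clones that arose by chance are part of the spread. All cells of both genotypes received cycloheximide at 100 µg/ml for 5 min before harvest, and polyA RNA was sequenced with a stranded kit. The question put to the mRNA was which functions and which single genes differ between the genotypes, beyond the few genes that a study of translation singles out.

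RPL10 (uL16) is a protein of the large ribosomal subunit that joins late in its assembly and sits near the tRNA sites. The mutation was described in T cell leukaemia. The levels of mRNA described here are what ribosomes then translate. Blood cells of different lineages are told apart by their surface receptors, their signalling adaptors and their granule enzymes, and cells that depend on a cytokine keep a set of genes switched on by that cytokine through STAT5 and through the Ras and MAP kinase pathway.

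Values are normalised read counts, which are reads over exons divided by a size factor of each library. They are given in the order of clones 11, 13 and 35 for R98S and 28, 29 and 36 for WT. The libraries held between 20576796 and 23136595 counted reads, except that of WT clone 28, with 6617457, in which 1 read is worth 2.69 normalised counts and the values of weakly expressed genes are therefore coarser. Of the 41255 genes listed, 19995 had no read in any of the 6 libraries. *Rpl10* itself cannot check the labels because both genotypes carry the knock-down. It was at 2905, 1449 and 2355 in R98S clones and at 4501, 2345 and 2230.3 in WT clones. Markers of B lymphocyte precursors were mostly absent in both genotypes: of the 14 in the list, 5 had no read in any library, *Pax5*, *Il7r* and *Rag1* among them, and only *Cd79a* and *Cd79b* were high enough to be tested. Markers of mast cells and basophils were present in part: 8 of 17 could be tested, with *Cpa3* higher and *Gata2* lower, while 5 had no read in any library, *Kit* and *Tpsb2* among them, and *Fcer1a* had 1 read. Their sum was between 18913 and 31084 in R98S clones and between 24162 and 29241 in WT clones. *Gata2*, a factor also found in blood progenitors, made up between 41.5% and 90.4% of it in single clones. Without *Gata2* the sum was between 3613 and 15997 in R98S clones and between 2360 and 7426 in WT clones. *Cma1* of the same list was at 13501, 1943 and 12235 in R98S clones and at 1324, 4111 and 640 in WT clones and was not called.

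For 11344 genes with a mean of at least 10, log2(normalised read count + 1) was compared between the genotypes with limma, and a Benjamini-Hochberg adjusted p under 0.1 was counted as a change. Fold changes are R98S against WT on this log2 scale with their standard error (SE), and they understate the change of genes with few reads. Of the tested genes, 6.94% were called: 344 were higher in R98S clones (3.03%) and 443 were lower (3.91%), and 785 of the 787 called genes had R98S values that all lay on one side of the WT values, which was so for 23.5% of all tested genes. Changes were large, with a median of 1.42 among the higher genes and -1.29 among the lower genes; 55 higher and 47 lower genes differed by at least 4 on the log2 scale. The median over all tested genes was 0.01. The p-values measure the spread between clones, and in RNA of a whole culture fewer cells that express a gene and less RNA per cell cannot be told apart. Calls depended on single clones: 240 of the 787 were made whichever clone was left out, and without R98S clone 11, R98S clone 13 or WT clone 36 only 328, 298 and 335 of them remained.

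Called genes were sorted into 56 lists of function, which cover 2772 tested genes and 268 of the called ones. Many of the lists with the highest shares of called members concerned the surface of the cell and the signals that leave it. All 56 lists were written with earlier results of these data known, so their order is a description. Homeobox factors (23.1%), intermediate filaments and septins (22.2%) and tetraspanins (4 of 13, 30.8%) also ranked high. No tetraspanin call remained without R98S clone 11 or without WT clone 36. In the list of Fc receptors and C-type lectins, which also counts *Siglec5*, a lectin of another type, 10 of 32 tested members were called. Of these 2 were higher and 8 lower. Of tyrosine kinases and adaptors, 15 of 54 were called, 10 of them higher and 5 lower. Of 15 dual specificity phosphatases, 4 were lower and none was higher (limma, in both directions), and the same split held for 5 of 20 genes of eicosanoid metabolism and 9 of 54 Ras and Rap GTPases and their regulators. At the other end, none of 48 tested genes of the tricarboxylic acid cycle and pyruvate metabolism and none of 24 genes of Wnt signalling passed the threshold. Genes of fatty acid oxidation and peroxisomes (1 of 64), of histone acetylation and chromatin remodelling (1 of 88), of autophagy (1 of 46) and of phosphoinositide signalling (2 of 85) were also below the 6.94% of all genes.

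**Figure D1:**
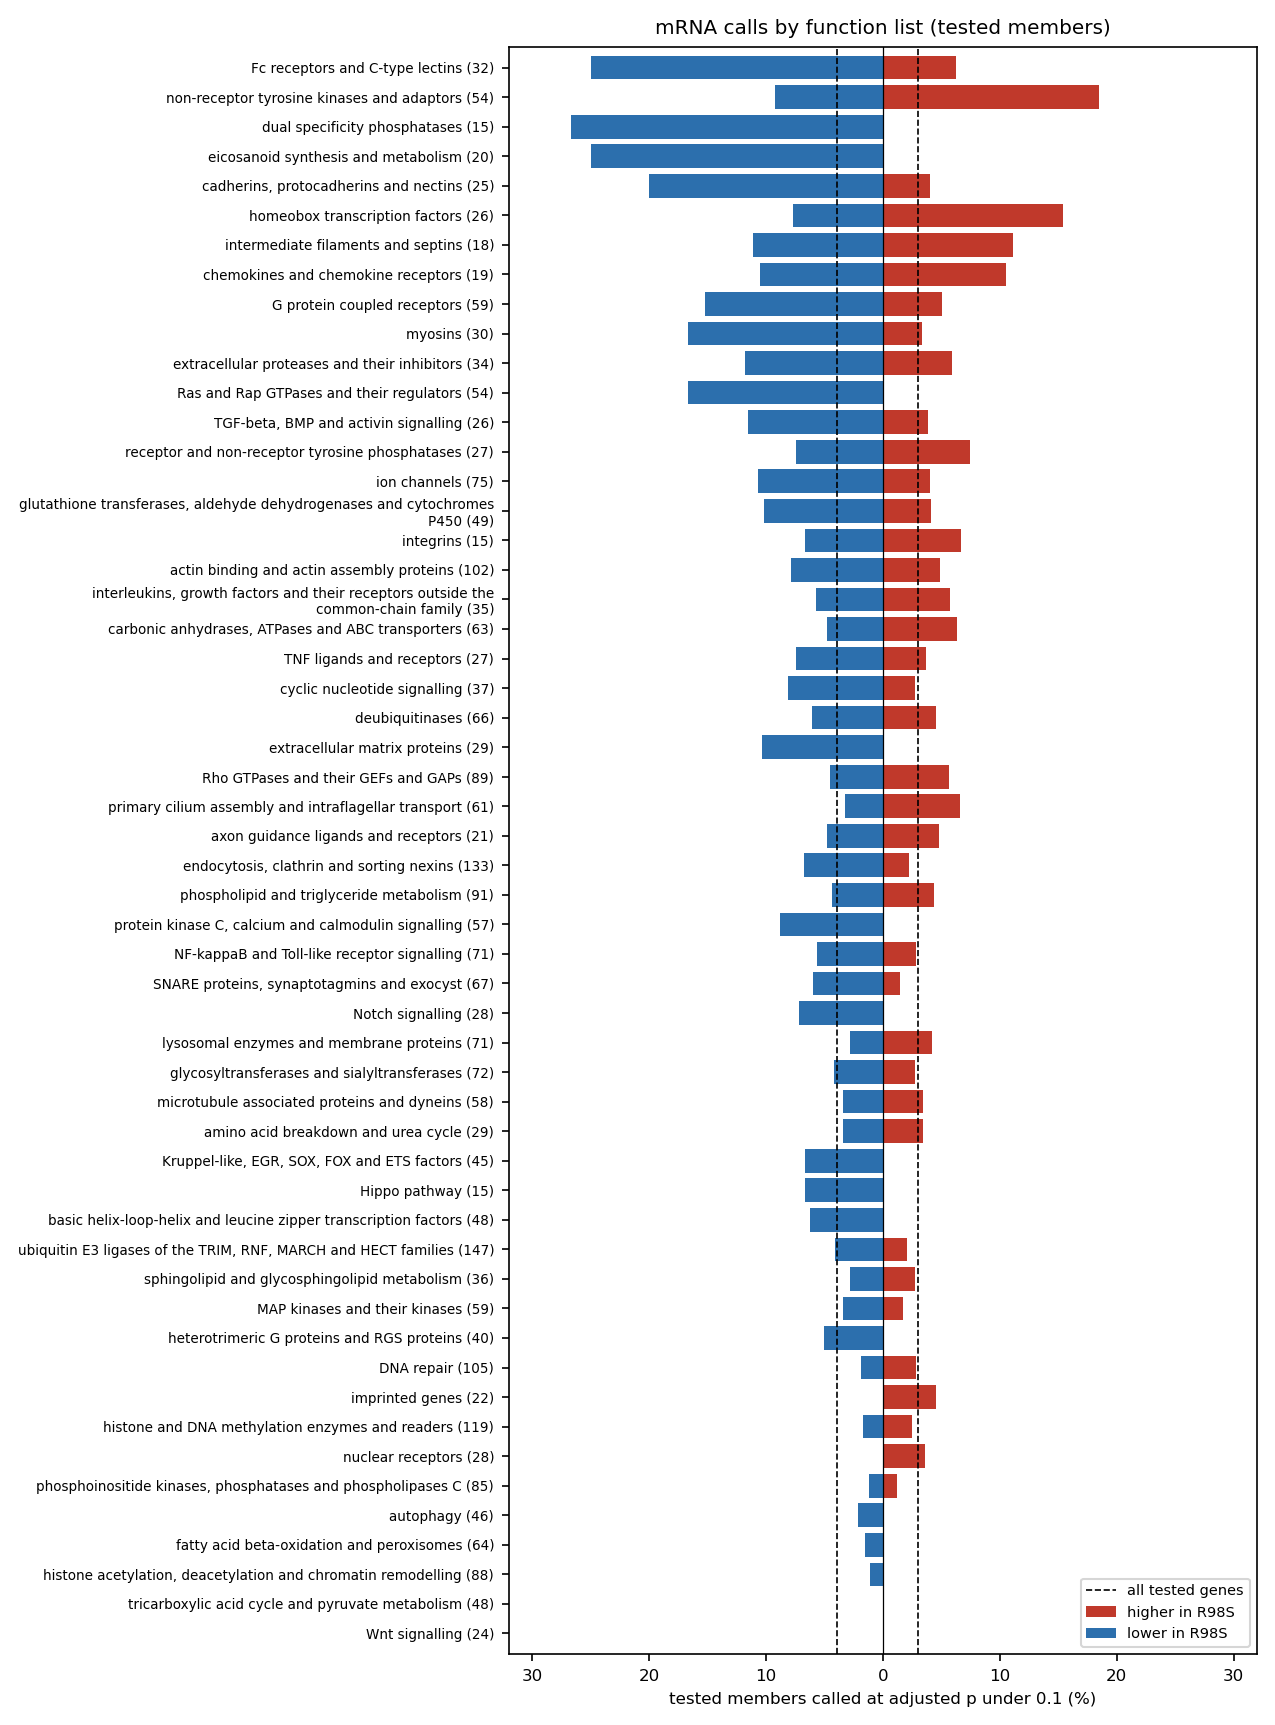
Each bar is 1 function list with at least 15 tested members, whose number stands in brackets; red bars to the right give the percentage of tested members called higher in R98S clones and blue bars to the left the percentage called lower, and the dashed lines mark the shares over all tested genes (3.03% and 3.91%). Fc receptors, tyrosine kinase adaptors, dual specificity phosphatases and eicosanoid genes stand at the top, while Wnt signalling and the tricarboxylic acid cycle have no called member.

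The adaptors that pass signals on from immune receptors changed in both directions. *Clnk*, a SLP-76 family adaptor of mast cells and cytokine-stimulated lymphocytes, was at 164, 81.9 and 226 in the R98S clones and 0, 0.825 and 0.784 in the WT clones. It was nearly silent in all WT clones, with 2 reads in all, and its ratio was 224.8 (95% counting interval 62.24 to 1857). *Sh2d2a*, the T cell specific adaptor TSAd, was at 422, 266 and 358 in the R98S clones and 2.69, 48.7 and 2.35 in the WT clones, a log2 fold change of 5.34 ± 0.88, adjusted p = 0.0109. WT clone 29 alone kept some of it. *Lat2*, a transmembrane adaptor of mast cells and B cells, was at 396, 215 and 565 against 69.8, 98.97 and 37.6 (2.49 ± 0.43, adjusted p = 0.0134). *Cblb*, a ubiquitin ligase that restrains receptor signalling, showed the least scatter, at 1962, 2328 and 1829 in the R98S clones and 489, 643 and 568 in the WT clones (1.85 ± 0.19, adjusted p = 0.000701). *Grb7*, *Fyn*, *Tyrobp* (the DAP12 adaptor), *Tnk1* and *Sh2b1* were higher as well, by 2.25, 0.79, 0.76, 4.09 and 0.60 on the log2 scale.

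Of the 5 lower adaptors, 3 belong to a known complex. *Lat*, *Lcp2* (SLP-76) and *Grap2* (Gads) encode proteins that assemble with one another beneath the T cell receptor and the mast cell IgE receptor. *Grap2* was at 3.97, 6.55 and 0 in the R98S clones and 126, 532 and 263 in the WT clones (log2 fold change -6.29 ± 0.78, adjusted p = 0.00233), *Lat* at 341, 356 and 454 against 1598, 779 and 1201 (-1.58 ± 0.27, adjusted p = 0.0125) and *Lcp2* at 1004, 1520.0 and 1439 against 2554, 2826 and 4087 (-1.25 ± 0.23, adjusted p = 0.0186). All 3 genes had every R98S value below every WT value, but the genotypes also did not overlap for 785 of the 787 called genes. *Sla2*, an adaptor that lowers receptor levels, was at 186, 302 and 172 against 1434, 666 and 1878 (-2.51 ± 0.38, adjusted p = 0.0065). *Tnk2* (Ack1) differed less, by -0.72. RPF, a second readout of the same clones, moved the same way for *Cblb* (2.03 ± 0.21, adjusted p = 0.000656), *Grb7* (2.06 ± 0.27, adjusted p = 0.0034), *Lcp2* (-1.83 ± 0.23, adjusted p = 0.00297) and *Sla2* (-3.76 ± 0.49, adjusted p = 0.0034), while *Clnk*, *Sh2d2a* and *Grap2* had no tested RPF value. Of the 15 calls in this list, 11 were made whichever clone was left out, and those of *Fyn*, *Tyrobp*, *Sh2b1* and *Tnk2* were each lost without R98S clone 11, R98S clone 13 or WT clone 36. *Lat* and *Cd247* are also T lymphocyte markers, of which 5 of 19 were tested, with 2 higher and 1 lower, and the call of *Cd247* was lost without R98S clone 11 or WT clone 36. Of the 5, 4 had a positive log2 fold change, with a median of 2.06. The summed T lymphocyte markers lay between 605 and 738 in R98S clones and between 883 and 1694 in WT clones, a sum carried by *Lat*; without *Lat* the order turned, with 248.97 to 362 in R98S clones and 72.9 to 105 in WT clones. *Cd3e*, *Cd4*, *Cd8a* and *Zap70* were at or near 0 in both genotypes.

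**Figure D2:**
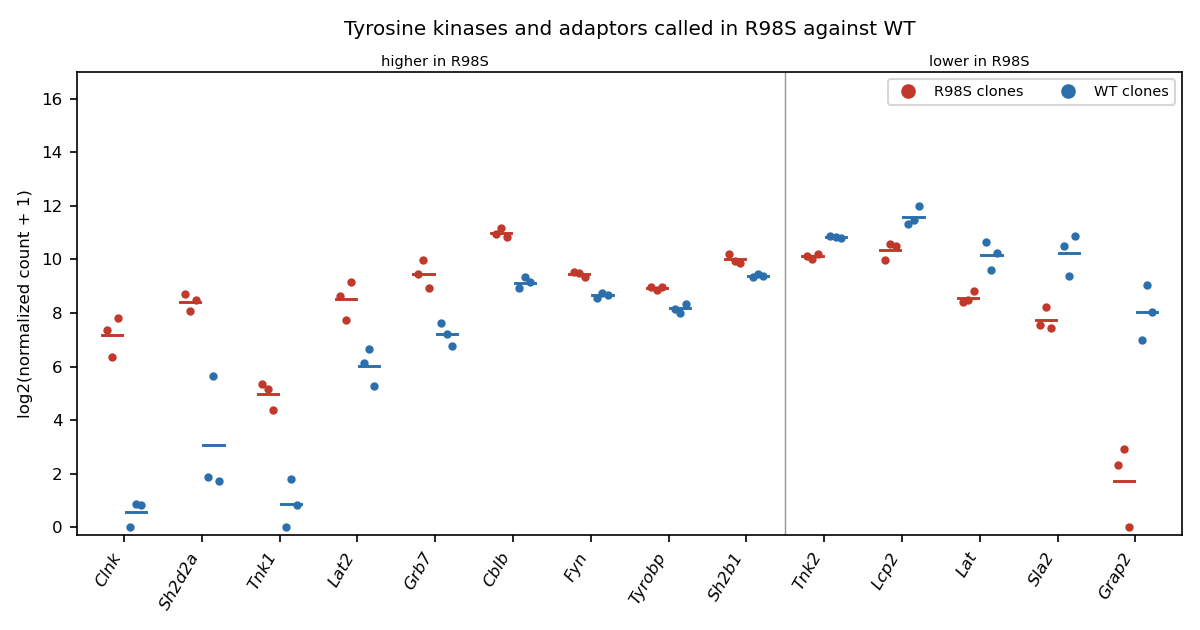
Points show log2(normalised read count + 1) of each clone for 14 called tyrosine kinases and adaptors, red for the 3 R98S and blue for the 3 WT clones, with the mean as a bar; genes are ordered by their difference. *Clnk* sits near 0 in the WT clones, and *Grap2* near 0 in the R98S clones.

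Called surface receptors of innate immune cells were mostly lower in R98S clones. *Cd69*, a C-type lectin that appears early on activated leukocytes, was at 201, 17.2 and 478 in the R98S clones and 5097, 2481 and 5669.6 in the WT clones (log2 fold change -5.11 ± 0.96, adjusted p = 0.0192), and R98S clone 13 stood well below the other R98S clones. *Clec5a*, which signals through DAP12, had no read in any R98S clone and 61.8, 94.03 and 14.9 in the WT clones, which makes it at least 69.1-fold lower (3 reads over the R98S clones taken as the floor). *Fcgr1*, the high-affinity IgG receptor, was at 0.794, 1.64 and 4.30 against 72.5, 49.5 and 29.8 (-4.05 ± 0.60, adjusted p = 0.00614). *Clec4e* (Mincle) and *Clec4d*, neighbouring receptors for microbial glycolipids, were at 1918, 1209 and 1804 against 3488, 4467 and 3443 and 1165, 1013 and 1049.7 against 2283, 2444 and 1988. They differed by -1.23 ± 0.21, adjusted p = 0.0137 and -1.05 ± 0.17, adjusted p = 0.00798. The inhibitory IgG receptor *Fcgr2b* was lower (-1.05 ± 0.27, adjusted p = 0.0734), whereas the activating *Fcgr3* was higher, at 3702, 3183 and 3796 in the R98S clones and 1493, 2297 and 1979 in the WT clones (0.91 ± 0.19, adjusted p = 0.0343). *Cd72* was the other higher member (1.30 ± 0.28, adjusted p = 0.0349). *Klra2* and *Siglec5* were lower too, although *Klra2* belongs to a family of near-identical genes whose reads may be shared. The median over the 32 tested members was -0.64. Without R98S clone 11, R98S clone 13 or WT clone 36, 5, 6 and 6 of the 10 calls remained, and those of *Fcgr2b*, *Fcgr3*, *Cd72*, *Klra2* and *Siglec5* were each lost without at least R98S clone 11.

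Of 59 tested G protein coupled receptors, 3 were higher and 9 were lower (20.3% called, against 6.94% of all genes), with a median of -0.29. Receptors for complement fragments and lipid mediators were among the lower ones. *Emr1*, which encodes the macrophage antigen F4/80, was at 418, 798 and 1046 in the R98S clones and 4777, 6508 and 6583 in the WT clones (log2 fold change -3.06 ± 0.31, adjusted p = 0.000716). *C3ar1*, the receptor of C3a, was at 70.7, 97.5 and 217 against 483, 454 and 541 (-2.09 ± 0.37, adjusted p = 0.0146), and *C5ar2*, a receptor of C5a, at 1.59, 4.09 and 4.30 against 45.7, 23.1 and 112 (-3.61 ± 0.64, adjusted p = 0.0146). *Ptafr*, the receptor of platelet activating factor, was at 19.8, 21.3 and 55.02 against 113, 119.6 and 103 (-1.92 ± 0.42, adjusted p = 0.035). *F2rl2* (PAR3), a thrombin receptor, was at 1163, 1709 and 2683 against 3631, 4489 and 5286 (-1.34 ± 0.29, adjusted p = 0.0343). The adhesion receptors *Gpr97* and *Gpr125* were lower by -1.48 and -0.74. *Gpr179* went the other way and was higher, with 2 reads in the WT clones and a ratio of 55.68 (95% counting interval 15.41 to 459.8). Without R98S clone 11, R98S clone 13 or WT clone 36, 6, 7 and 6 of the 12 calls remained, and those of *Ptafr*, *F2rl2*, *Gpr125* and *Gpr179* were lost without each of these clones. *Ccr1*, a chemokine receptor of myeloid cells, was at 205, 72.9 and 247 in the R98S clones and 1592, 1558 and 736 in the WT clones (-2.97 ± 0.46, adjusted p = 0.00736), while *Cxcr4* and *Cxcr2* were higher (1.95 and 1.19), although neither call held without R98S clone 11, R98S clone 13 or WT clone 36.

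Among markers of monocytes and macrophages, 3 of 6 tested were lower and none was higher (limma): *Emr1*, *Fcgr1* and *Cd163*, the last not without R98S clone 13, R98S clone 35, WT clone 29 or WT clone 36. Their summed level was between 550.1 and 1195 in R98S clones and between 5451 and 6952 in WT clones, while defining genes of that lineage such as *Csf1r* and the C1q genes were at or near 0 in all 6 clones. Markers of megakaryocytes and platelets summed to between 14709 and 17030.4 in R98S clones and to between 30509 and 48815 in WT clones, with 2 of 9 tested members lower, and those of neutrophils to between 659 and 888 and to between 991 and 1590, with 2 of 5 lower. Over the members that were not called, the sums were 101 to 152 against 176 to 553 for monocytes and macrophages, 13540 to 15284 against 16367 to 18486 for megakaryocytes and platelets and 495 to 810 against 471 to 902 for neutrophils, where the genotypes overlapped. The value of 553 was that of WT clone 28 and was carried by *Cd14*, at 429.7 there and at 3.30 and 0 in WT clones 29 and 36. *Cd68* did not separate the genotypes, at 99.2, 145 and 131 in R98S clones and 118, 158 and 123 in WT clones. The part of such markers in the receptor changes was not tested.

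*Selp* and *Sele*, which encode selectins of platelets and endothelium, lectins that tether blood cells, were lower. *Selp* was at 12.7, 6.55 and 13.8 in the R98S clones and 148, 43.7 and 94.8 in the WT clones (log2 fold change -2.90 ± 0.51, adjusted p = 0.0146). *Sele* had 1 read in the R98S clones and 18.8, 7.42 and 50.9 in the WT clones (ratio 93.72, 95% counting interval 16.82 to 3702, counting error only, as for all such intervals here). Both genes lie on chromosome 1, within a run of lower genes described further down. Of the adhesion molecules of the cadherin, nectin and selectin list, 5 of 25 were lower and 1 was higher, and 3 of the 6 calls were made whichever clone was left out. *Cadm4*, an immunoglobulin-like adhesion molecule, was at 1.59, 0.819 and 6.88 against 158, 70.9 and 70.5 (-4.81 ± 0.63, adjusted p = 0.00323), and *Jam2*, a junctional adhesion molecule, was lower by a smaller amount (-1.66). The integrin chain *Itgb7* was lower, at 502, 389.8 and 669 against 1249, 1819 and 1165 (-1.44 ± 0.25, adjusted p = 0.0137), and *Itga7* was higher (2.53). The calls of *Jam2* and *Itga7* were lost without either R98S clone 11 or R98S clone 13 and without WT clone 29.

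**Figure D3:**
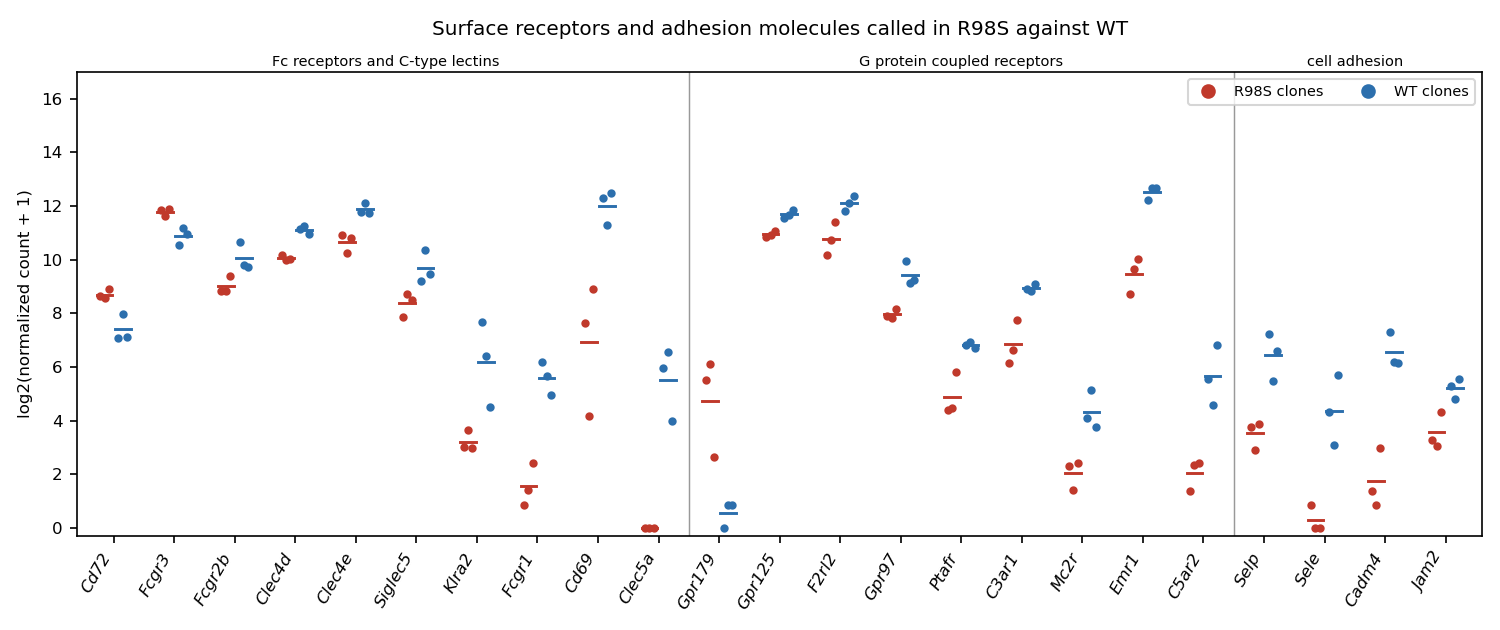
Points show log2(normalised read count + 1) of each clone for selected called Fc receptors and C-type lectins, G protein coupled receptors and adhesion molecules, red for R98S and blue for WT clones, with the mean as a bar. Most genes have their red points below the blue ones; *Fcgr3*, *Cd72* and *Gpr179* have them above.

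Called genes that growth factors and cytokines switch on were mostly lower. The feedback phosphatases *Dusp4*, *Dusp5*, *Dusp6* and *Dusp7* remove phosphate from ERK and are themselves induced by ERK signalling. *Dusp6* was at 812, 595 and 1249 in the R98S clones and 3163, 2874 and 3135 in the WT clones (log2 fold change -1.85 ± 0.25, adjusted p = 0.004), *Dusp4* at 579, 457 and 739 against 1466, 2303 and 3387 (-1.95 ± 0.30, adjusted p = 0.00739), *Dusp5* at 206, 221 and 271 against 1447, 393 and 1105 (-1.89 ± 0.42, adjusted p = 0.0372) and *Dusp7* at 325, 292 and 291 against 862, 549 and 939.6 (-1.33 ± 0.24, adjusted p = 0.0146). No value of these genes overlapped between the genotypes, which was so for 785 of the 787 called genes. RPF moved the same way for *Dusp6* (-2.20 ± 0.28, adjusted p = 0.00323) and *Dusp4* (-1.995 ± 0.21, adjusted p = 0.000725). The call for *Dusp5* was lost without R98S clone 11, R98S clone 13 or WT clone 36.

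Regulators of Ras and Rap, small GTPases upstream of ERK and of integrins, were lower in 9 of 54 cases (16.7%, against 6.94% of all genes) and higher in none (limma). They include both a brake and an accelerator. *Rasa1*, a GTPase-activating protein that turns Ras off, was at 984, 871 and 1181 in the R98S clones and 1858, 2690.5 and 2563 in the WT clones (-1.22 ± 0.20, adjusted p = 0.0111), and *Rasgrp4*, a mast cell exchange factor that turns Ras on, at 30.96, 60.6 and 89.4 against 118, 211 and 141 (-1.44 ± 0.41, adjusted p = 0.0951). *Rap2a* was at 736, 1079 and 503 against 1678, 1699 and 2119.8 (-1.31 ± 0.27, adjusted p = 0.0274). The changes were modest, with a list median of -0.13. Only 2 calls remained without R98S clone 11, without R98S clone 13 or without WT clone 36, and 3 without WT clone 29.

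A list of 41 immediate early and growth factor feedback genes, drawn up after their values had been seen, held 13 lower and 2 higher members with a median of -0.71, and 32 of the 41 had a negative log2 fold change. The 15 calls are 36.6% of the list, against 6.94% of all genes. Because the members were chosen with their values in view, these figures test no shift. *Id1*, an inhibitor of helix-loop-helix factors, was at 175, 235 and 981 in the R98S clones and 5137, 3108 and 3575 in the WT clones (log2 fold change -3.48 ± 0.54, adjusted p = 0.00736). *Junb*, an AP-1 subunit, was at 688, 626 and 1227 against 3811, 1766 and 4862 (-1.98 ± 0.38, adjusted p = 0.0202) and *Ier2* at 1015, 788 and 1856 against 5199, 2474 and 4239.5 (-1.73 ± 0.35, adjusted p = 0.0257). R98S clone 35 had the highest of the 3 R98S values in each of them. *Sik1*, a kinase induced by cyclic AMP, was at 234, 228 and 429.8 against 1442, 821 and 1277 (-2.01 ± 0.30, adjusted p = 0.00657), and *Btg1*, which restrains proliferation, at 426, 263 and 452 against 1531, 1145 and 806 (-1.60 ± 0.29, adjusted p = 0.0158). *Myc* followed with 3104, 2956 and 6991 against 8019, 9399 and 9816 (-1.18 ± 0.30, adjusted p = 0.0691). *Jun* went the other way, at 272, 589.7 and 244 against 148, 70.1 and 121 (1.64 ± 0.39, adjusted p = 0.0512). Of the 15 calls, 6 remained without R98S clone 11, 4 without R98S clone 13, 9 without WT clone 29 and 4 without WT clone 36.

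Targets of STAT5, the factor that interleukin-3 activates through JAK2, were also drawn up after the values had been seen, and 4 of 15 were lower (26.7%, against 6.94% of all genes). *Bcl2l1*, which encodes the survival protein Bcl-xL, was at 734, 1280.0 and 1230.2 in the R98S clones and 3588, 2682 and 3758 in the WT clones (-1.66 ± 0.24, adjusted p = 0.00614). *Socs3*, a feedback inhibitor of JAK kinases, was at 94.5, 101 and 128 against 494, 253 and 531 (-1.91 ± 0.31, adjusted p = 0.0104). *Pim1*, a survival kinase, was abundant in both genotypes, at 6634, 6262 and 12121 against 18650.0, 12251 and 16549.7 (-0.97 ± 0.27, adjusted p = 0.0919), and its R98S clone 35 lay close to WT clone 29. *Pim3* was at 0.794, 0.819 and 10.3 against 139.6, 18.1 and 39.2 (-3.84 ± 0.91, adjusted p = 0.0504). The calls of *Pim1* and *Pim3* were lost without R98S clone 11, R98S clone 13 or WT clone 36, and that of *Pim1* also without WT clone 28. In contrast, *Csf2rb2*, the beta chain of the interleukin-3 receptor, was higher, at 50609.6, 41694 and 53531 against 19926, 31276 and 24982 (0.95 ± 0.22, adjusted p = 0.0424), although reads may be shared with its near-identical neighbour *Csf2rb*, and its call was lost without R98S clone 11, R98S clone 35 or WT clone 36.

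Enzymes of cholesterol synthesis were lower where they were called. Of 27 tested genes of cholesterol synthesis and uptake, a list drawn up after the values had been seen, 6 were lower, none was higher (limma), and 23 had a negative log2 fold change, with a median of -0.59. The share called was 22.2%, against 6.94% of all genes. As the members were chosen with their values in view, these figures test no shift. *Hmgcs1*, which makes the precursor of mevalonate, was at 1324, 1422 and 1881 in the R98S clones and 2344, 2653 and 3638 in the WT clones (-0.89 ± 0.22, adjusted p = 0.0538). *Msmo1*, a late enzyme of the pathway, was at 807, 979 and 1475 against 2411, 2257 and 2613 (-1.20 ± 0.23, adjusted p = 0.0197), and *Fdps* at 707, 612 and 1158 against 1762, 1405 and 1715 (-1.03 ± 0.25, adjusted p = 0.0525). *Idi1* and *Sqle* differed by -0.83 and -0.71. Only *Msmo1* was called whichever clone was left out. A single call remained without R98S clone 11, without R98S clone 13 or without WT clone 36, and 4 without WT clone 29.

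Of 21 metallothioneins and zinc transporters, 3 were lower and 1 was higher, which is 19% against 6.94% of all genes. *Mt1* and *Mt2* encode metallothioneins, which bind zinc and copper and are induced by them through metal response elements. *Mt1* was at 3349, 2323 and 3018 in the R98S clones and 9614, 6635 and 5576 in the WT clones (log2 fold change -1.31 ± 0.23, adjusted p = 0.0146) and *Mt2* at 2455, 1613 and 1896 against 6552, 6946 and 4495 (-1.59 ± 0.22, adjusted p = 0.00487), and RPF moved alike (-1.43 ± 0.16, adjusted p = 0.00107 and -1.55 ± 0.18, adjusted p = 0.00184). *Slc30a1*, the zinc exporter of the plasma membrane, was at 449, 391 and 655 against 728, 885 and 1002 (-0.83 ± 0.24, adjusted p = 0.0951). *Slc30a2*, a zinc transporter of vesicles, was higher, at 360.4, 212 and 200.3 against 45.7, 32.99 and 90.1 (2.25 ± 0.40, adjusted p = 0.0149). The 2 metallothioneins are so alike that reads may be shared between them, and the list was drawn up after the values had been seen. The call for *Slc30a1* was lost without R98S clone 11, R98S clone 13, WT clone 29 or WT clone 36. The 150 bases upstream of the RefSeq start sites of *Mt1*, *Mt2*, *Slc30a1* and *Hmgcs1* are given here to show where the letters of known response elements stand in them. A match is a description and not a site shown to act. GENCODE starts *Mt1* at 94179082 and *Mt2* at 94172664, so these windows hold for the RefSeq starts only. The sequences come from RefSeq (GRCm38.p6, all on the plus strand), with matches to TGCACNC or TGCGCNC, the core of the metal response element, in capitals on either strand, and for *Hmgcs1* with TCACNCCAC, a sterol response element, in capitals.
Mt1, chr8:94178939-94179088: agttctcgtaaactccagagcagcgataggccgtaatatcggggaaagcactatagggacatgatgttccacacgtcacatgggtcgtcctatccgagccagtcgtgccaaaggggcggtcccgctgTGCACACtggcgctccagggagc
Mt2, chr8:94172468-94172617: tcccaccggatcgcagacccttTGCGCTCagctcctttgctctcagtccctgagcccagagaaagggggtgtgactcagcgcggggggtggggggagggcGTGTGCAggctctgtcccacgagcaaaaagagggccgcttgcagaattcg
Slc30a1, chr1:191906631-191906780: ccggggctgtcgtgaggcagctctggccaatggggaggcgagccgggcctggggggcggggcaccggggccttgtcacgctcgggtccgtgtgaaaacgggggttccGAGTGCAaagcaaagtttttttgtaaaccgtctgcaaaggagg
Hmgcs1, chr13:119690201-119690350: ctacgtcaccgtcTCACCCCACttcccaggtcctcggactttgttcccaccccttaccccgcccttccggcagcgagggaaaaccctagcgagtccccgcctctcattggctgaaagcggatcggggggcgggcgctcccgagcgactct

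In windows from 250 bases before to 50 bases after the start site, the metal letters were common everywhere, in 40.2% of the 8718 tested genes with a RefSeq promoter, in 36.1% of the 255 higher and in 35.2% of the 332 lower ones. The sterol letters were in 1.41% of all, 1.18% of higher and 2.71% of lower genes. TGANTCA, bound by AP-1, was found in 5.87% of all promoters, in 7.45% of the higher and in 11.4% of the lower genes. CCGGAAG, bound by ETS factors, was found in 22.1% of all promoters, in 14.9% of those of higher and in 10.2% of those of lower genes. AGATAA, bound by GATA factors, was in 7.74%, 10.6% and 9.04%, and TGGGAA, bound by Ikaros factors, in 26.7%, 27.8% and 27.4%. CACGTG, the E-box, was in 11.8%, 10.2% and 9.34%. Both strands were searched. These shares are a description and carry no test.

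In a list of glutathione and peroxide defence genes, drawn up after the values had been seen, 4 of 30 were lower (13.3%, against 6.94% of all genes) and none was higher (limma). The median was -0.13, and 11 of the 30 had a positive log2 fold change. The 4 lower genes include *Txnip*, which is not itself a defence enzyme. *Gclm*, the regulatory subunit of the enzyme that starts glutathione synthesis, was at 2573, 1698 and 2526 in the R98S clones and 5317, 5670.4 and 5183 in the WT clones (-1.27 ± 0.19, adjusted p = 0.00695). *Txnip*, which binds thioredoxin and restrains glucose uptake, was at 8205, 5852 and 8978 against 15932, 15983 and 19340.3 (-1.17 ± 0.20, adjusted p = 0.0132), with an RPF change of -2.15 ± 0.31, adjusted p = 0.00526. *Prdx2* and *Srxn1* were lower by -0.90 and -0.67, calls that were lost without R98S clone 11, R98S clone 13 or WT clone 36. Detoxifying enzymes went both ways: in the list of glutathione transferases, aldehyde dehydrogenases and cytochromes P450, 5 of 49 were lower and 2 higher. This is 14.3%, against 6.94% of all genes. *Cyp2c44*, a cytochrome P450, was higher (1.35 ± 0.21, adjusted p = 0.00852). *Gstm2*, a glutathione transferase, was at 6.35, 1.64 and 1.72 against 158, 310.1 and 159.9 (-5.74 ± 0.52, adjusted p = 0.0004), and *Akr1e1*, an aldo-keto reductase, at 1.59, 1.64 and 17.2 against 258, 316 and 262 (-5.80 ± 0.69, adjusted p = 0.00196). Both were close to absent in R98S clones.

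**Figure D4:**
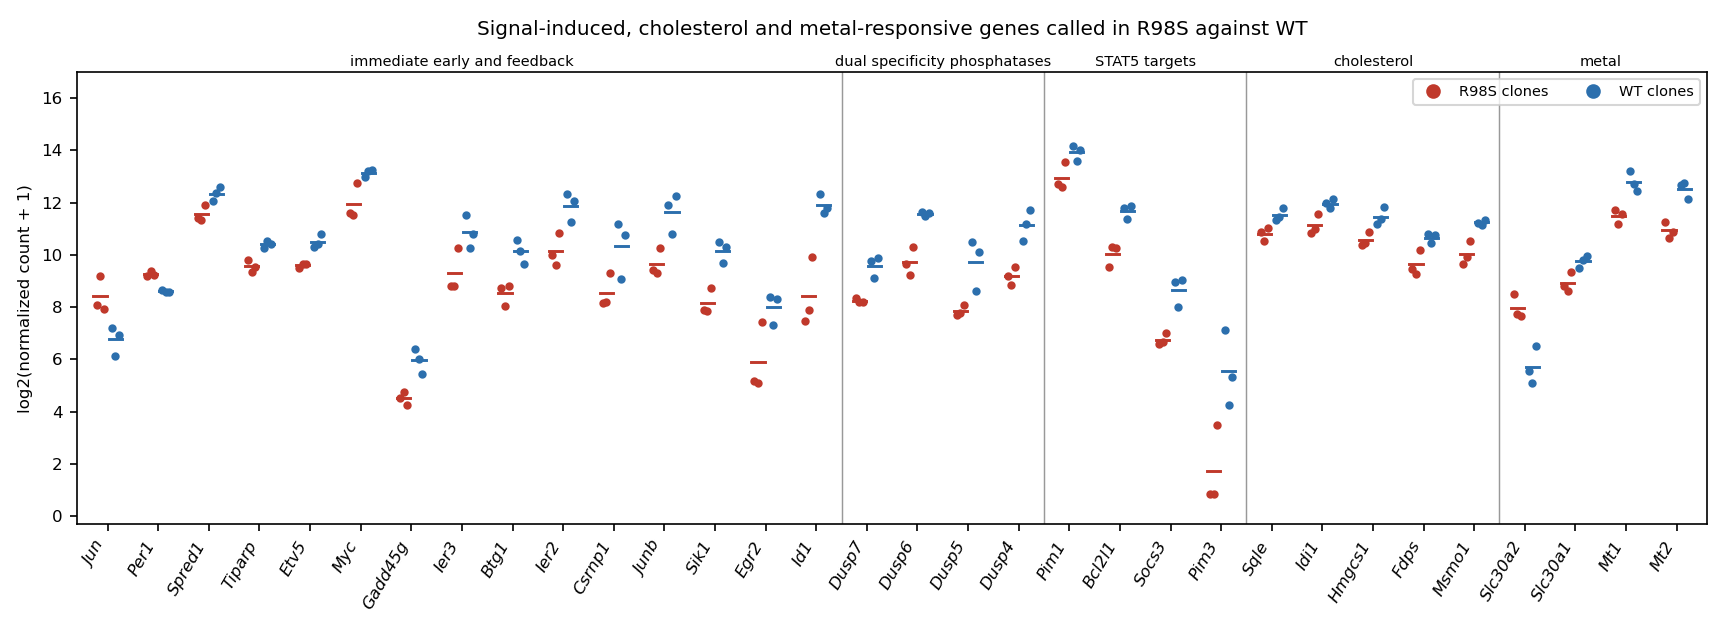
Points show log2(normalised read count + 1) of each clone for called immediate early and feedback genes, dual specificity phosphatases, STAT5 targets, cholesterol genes and metal genes, red for R98S and blue for WT clones, with the mean as a bar. *Jun*, *Per1* and *Slc30a2* are higher in R98S clones and the rest are lower, and R98S clone 35, the right-hand red point, often lies nearest to the WT clones.

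Of 20 tested genes of eicosanoid synthesis, the making of lipid mediators, 5 were lower and none was higher (limma), while 9 had a positive log2 fold change and the median was -0.18. *Pla2g4a*, the phospholipase that frees arachidonic acid, was at 1786, 2134 and 1391 in the R98S clones and 2664, 2942 and 3730.1 in the WT clones (-0.82 ± 0.21, adjusted p = 0.0661). *Ptgs1* (COX-1), the first enzyme of prostaglandin synthesis, was at 2640.3, 4106 and 3814 against 9136, 6014 and 7485 (-1.10 ± 0.22, adjusted p = 0.0269), and *Alox5ap* (FLAP), the partner of 5-lipoxygenase, at 743, 760.0 and 1274 against 1848, 2147 and 1462 (-1.003 ± 0.25, adjusted p = 0.0588). *Ptgr1*, which degrades prostaglandins and leukotriene B4, differed by -1.04, and *Ggt5*, which converts leukotriene C4, by -1.33. No call in the list remained without R98S clone 11, and 2 to 4 remained without any other single clone. Other lipid enzymes went both ways. *Fads1*, a desaturase, was lower (-0.85), *Acsl1*, an acyl-CoA synthetase, was lower (-0.88), *Cers2*, a ceramide synthase, was lower (-1.03), and *Kdsr*, an early enzyme of sphingolipid synthesis, was higher (0.83). Of these 4 calls only that of *Cers2* held without R98S clone 11.

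Single metabolic genes were switched nearly on or off. *Nos1*, neuronal nitric oxide synthase, was at 7.94, 43.4 and 43.8 in the R98S clones and 634, 1346 and 770.3 in the WT clones (-5.06 ± 0.59, adjusted p = 0.00176), with an RPF change of -4.97 ± 0.50, adjusted p = 0.000608. *Tph1*, which starts serotonin synthesis and is a gene of mast cells, had 30.2, 16.4 and 37.8 against 0, 1.65 and 0.784, a ratio of 26.82 (95% counting interval 9.178 to 130.1). *Cyp11a1*, the enzyme that starts steroid synthesis, was abundant and higher, at 12544, 8288 and 14716 against 5865, 6655 and 5513 (0.94 ± 0.22, adjusted p = 0.05). *Nr5a1*, the steroidogenic factor that is known to act on it in the adrenal gland and gonads, had 1 read in the WT clones and 16.7, 21.3 and 40.4 in the R98S clones (ratio 74.74, 95% counting interval 13.41 to 2952). The calls for *Cyp11a1* and *Tpp1* were lost without R98S clone 11, R98S clone 35 or WT clone 36, and those for *Car14*, *Car9* and *Sgsh* without R98S clone 11 or R98S clone 13. Of the carbonic anhydrases, which hydrate carbon dioxide, 3 were higher: the mitochondrial *Car5b* was at 64.3, 265 and 375 against 2.69, 2.47 and 2.35 (5.74 ± 0.62, adjusted p = 0.00109), *Car14* at 88.9, 42.6 and 33.5 against 2.69, 7.42 and 12.5 (2.78 ± 0.60, adjusted p = 0.0343) and *Car9* at 189.7, 208 and 169 against 88.6, 92.4 and 74.4 (1.14 ± 0.25, adjusted p = 0.0354). The calcium pump *Atp2b1* (-1.27), the phospholipid flippase *Atp8b4* (-2.51) and the exporter *Abcc1* (-0.93) were lower, whereas the flippase *Atp8b5* was higher (3.90). *Lgmn*, a lysosomal cysteine protease, was at 582, 254 and 223 in the R98S clones and 4036, 5451 and 4792 in the WT clones (-3.88 ± 0.33, adjusted p = 0.000297), and its RPF moved as far (-4.14 ± 0.33, adjusted p = 0.00017), while the lysosomal *Sgsh* and *Tpp1* were higher (1.81 and 0.81).

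Called genes of the cytoskeleton went both ways. Of 102 tested actin-binding proteins 8 were lower and 5 higher, and of 30 myosins and their regulators 5 were lower and 1 higher. Among 18 intermediate filament and septin genes 2 rose and 2 fell, and so did 2 and 2 among 58 microtubule-associated proteins and dyneins. The shares called were 12.7%, 20.0%, 22.2% and 6.90%, the last of them close to the 6.94% of all genes. *Acta2*, smooth muscle actin, was at 231, 34.4 and 98 in the R98S clones and 2049, 1830.2 and 3915 in the WT clones (-4.71 ± 0.58, adjusted p = 0.00233). *Mylk*, the kinase of the myosin light chain, was at 7.14, 38.5 and 54.2 against 502, 297 and 784 (-4.23 ± 0.65, adjusted p = 0.00739), with an RPF change of -5.15 ± 0.66, adjusted p = 0.00333. Of the called actin and myosin genes, only *Acta2* and *Mylk* were called whichever clone was left out, and the actin list held 5, 3 and 1 of its 13 calls without R98S clone 11, R98S clone 13 and WT clone 36. *Zyx*, a protein of focal adhesions, was at 2229.9, 1897 and 3165 against 4023, 5557 and 7143 (-1.19 ± 0.25, adjusted p = 0.0339), and *Tpm1*, a tropomyosin, at 4207, 3373 and 4294 against 6189.8, 7454 and 8814 (-0.91 ± 0.19, adjusted p = 0.0289). The intermediate filament genes *Vim* and *Lmna* were lower (-1.33 and -1.01), and *Evpl* (envoplakin) and the septin *Sept1* were higher (3.86 and 0.75), calls that were all 4 lost without WT clone 36. The filamin *Flna* was lower (-1.08 ± 0.31, adjusted p = 0.0951), and *Flnc* was higher (2.04 ± 0.43, adjusted p = 0.0307). *Myo7a*, an unconventional myosin of sensory hair cells, was higher, at 1298, 1367 and 870.0 against 204, 521 and 476 (1.64 ± 0.35, adjusted p = 0.0339).

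Regulators of the small GTPases that shape actin changed strongly in a few cases. *Trio*, an exchange factor for such GTPases, had no read in the WT clones and 29.4, 36.03 and 81.7 in the R98S clones, which makes it at least 46.75-fold higher. *Farp1* was at 69.9, 138 and 61.9 against 5.37, 8.25 and 6.27 (3.50 ± 0.44, adjusted p = 0.00275). *Itsn1*, an exchange factor for Cdc42 with a part in endocytosis, went down from 1119.8, 638 and 619.9 in the WT clones to 21.4, 25.4 and 35.2 in the R98S clones (-4.78 ± 0.32, adjusted p = 6.92e-05), and its RPF change was -5.95 ± 0.59, adjusted p = 0.000608. *Snx9*, a sorting nexin of the same membrane step, was lower, at 16.7, 23.8 and 10.3 against 134, 155 and 312 (-3.46 ± 0.43, adjusted p = 0.00251). Of 133 genes of endocytosis 9 were lower and 3 higher, which is 9.02% against 6.94% of all genes. Without R98S clone 11, R98S clone 13 and WT clone 36, 5, 2 and 3 of these 12 calls remained. *Cav2*, a caveolin, was higher, with 1 read in the WT clones and 9.53, 44.2 and 101 in the R98S clones (ratio 147.2, 95% counting interval 26.42 to 5813). *Mapre3*, which binds growing microtubule ends, had no read in WT clones and 73.8, 69.6 and 64.5 in R98S clones and was at least 66.09-fold higher.

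Genes of the primary cilium went both ways. *Smo*, the signal transducer of the Hedgehog pathway, which acts at the cilium, was higher, at 317, 285 and 167 in the R98S clones and 69.8, 73.4 and 63.5 in the WT clones (1.83 ± 0.30, adjusted p = 0.0102). The kinesin *Kif17*, a motor of cilia, was at 198, 123 and 114 against 16.1, 28.04 and 25.9 (2.58 ± 0.36, adjusted p = 0.00487), and *Rpgrip1* at 204, 248 and 98.9 against 10.7, 18.1 and 40.7 (3.03 ± 0.52, adjusted p = 0.0126). *Rfx2* was lower (-0.96). Of the 61 tested cilium genes 4 were higher and 2 lower, which is 9.84% against 6.94% of all genes. Of these 6 calls 5 were made whichever clone was left out. That of *Rfx2* was lost without R98S clone 11, R98S clone 13, WT clone 29 or WT clone 36. In the TGF-beta and BMP list, *Smad3*, a signal transducer, was at 52.4, 102 and 12.9 against 521, 273 and 346 (-3.12 ± 0.62, adjusted p = 0.0253), and *Bambi*, a decoy receptor, at 63.5, 52.4 and 61.04 against 220.2, 214 and 214 (-1.86 ± 0.25, adjusted p = 0.00333).

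Ion channels were lower in 8 of 75 cases and higher in 3, which is 14.7% called against 6.94% of all genes. *Clcn3*, a chloride exchanger of endosomes, was at 208, 88.4 and 119 in the R98S clones and 1028, 1469 and 1333 in the WT clones (-3.27 ± 0.31, adjusted p = 0.000499). *Cacnb2*, a subunit of voltage-gated calcium channels, was at 0.794, 4.09 and 30.9 against 279, 362 and 403 (-5.70 ± 0.85, adjusted p = 0.00637), with a wider spread among the R98S clones. *Kcnk1*, a potassium channel, had 1 read in the R98S clones and 34.9, 43.7 and 35.3 in the WT clones (ratio 138.3, 95% counting interval 24.83 to 5464). *Kcnn4*, the calcium-activated potassium channel of leukocytes, was at 291, 234 and 202 against 822, 562 and 678 (-1.50 ± 0.23, adjusted p = 0.00735), and *P2rx1*, an ATP-gated channel, at 348, 575 and 526 against 1643, 1142 and 1506 (-1.58 ± 0.24, adjusted p = 0.00679). Both had RPF changes of like size (-1.60 and -1.56). *Hvcn1*, the voltage-gated proton channel of leukocytes, was higher, at 323, 353 and 341 against 118, 95.7 and 83.8 (1.78 ± 0.23, adjusted p = 0.00331). Of the 11 calls, 7 were made whichever clone was left out.

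Coagulation and complement genes, a list drawn up after the values had been seen, changed in 10 of 27 cases, 4 higher and 6 lower (37%, against 6.94% of all genes). *Tfpi*, the inhibitor of the tissue factor pathway, was at 171, 76.98 and 353 in the R98S clones and 5.37, 1.65 and 0 in the WT clones (6.03 ± 0.75, adjusted p = 0.00251). *Cd55*, which protects cells from complement, was at 3172, 2477 and 1706 against 107, 672 and 1053 (2.48 ± 0.69, adjusted p = 0.0866), and *C3* at 649, 1287 and 763 against 448, 173 and 258 (1.66 ± 0.37, adjusted p = 0.0366). *Pros1*, protein S, a cofactor that limits coagulation, was lower, at 233, 106 and 184 against 545, 954 and 880.0 (-2.21 ± 0.33, adjusted p = 0.00633), and so were *F5*, *C3ar1*, *C5ar2* and *F2rl2*. The call for *Cd55* was lost without any 1 of the R98S clones and with DESeq2. Of the 10 calls, 7, 5 and 6 remained without R98S clone 11, R98S clone 13 and WT clone 36.

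Shares called in the lists of transcription factor families varied, against 6.94% of all genes. They were 6.25% of 48 helix-loop-helix and leucine zipper factors and 6.67% of 45 Kruppel-like, EGR, SOX, FOX and ETS factors. Nuclear receptors were at 3.57% of 28. Factors among the immediate early genes are described above. Of 26 homeobox factors, 4 were higher and 2 lower (23.1% called). *Meis2* was at 213, 450.4 and 463 in the R98S clones and 124, 176 and 135 in the WT clones (1.30 ± 0.33, adjusted p = 0.0637), *Pax6* at 76.2, 131 and 157 against 42.97, 34.6 and 30.6 (1.68 ± 0.35, adjusted p = 0.0328) and *Otx1* at 117, 129 and 79.95 against 34.9, 43.7 and 39.2 (1.42 ± 0.31, adjusted p = 0.037). *Zeb2*, a repressor with a part in myeloid and lymphoid development, was lower, at 1053, 1197 and 818 against 1455, 3272 and 3236 (-1.30 ± 0.31, adjusted p = 0.0512). None of the 6 calls was made whichever clone was left out; none remained without R98S clone 13 or without WT clone 36. *Lyl1*, a helix-loop-helix factor of blood progenitors, was lower, at 1769, 1644 and 1104 against 4052, 2975 and 3711 (-1.27 ± 0.22, adjusted p = 0.0132), and *Xbp1*, a factor of the unfolded protein response, was lower by less (-0.87 ± 0.19, adjusted p = 0.0349), a call lost without R98S clone 11 or R98S clone 13. In the ubiquitin system, *Rnf217* was at 0, 4.09 and 12.9 against 373, 447 and 369 (-6.58 ± 0.78, adjusted p = 0.00201) and *Trim2* at 175, 81.9 and 174 against 10.7, 22.3 and 19.6 (2.94 ± 0.43, adjusted p = 0.00576), and *Usp17la*, a cytokine-induced deubiquitinase with near-identical copies, was at 508, 376 and 416 against 1396, 2856 and 2346 (-2.29 ± 0.27, adjusted p = 0.00181).

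A list of 98 factors that build ribosomes was drawn up after the values had been seen. In it 72 had a positive log2 fold change and the median was 0.18, against 0.01 over all genes. Because the members were chosen with their values in view, these figures test no shift. Of the 98 genes 7 were higher and 1 lower, which is 8.16% and close to the 6.94% of all genes. *Polr1e*, a subunit of RNA polymerase I, was at 1241, 1155 and 1199 in the R98S clones and 604, 454 and 639 in the WT clones (1.10 ± 0.19, adjusted p = 0.0134) and was the only one called whichever clone was left out. *Mdn1*, an ATPase of the pre-60S particle, was at 4794, 5087 and 3928 against 2315, 1804 and 3595 (0.89 ± 0.25, adjusted p = 0.0881). *Nmd3*, the export adaptor of the 60S subunit whose release is known to depend on RPL10, was lower, at 1724, 1377 and 2435 against 2924, 2988 and 3350.1 (-0.78 ± 0.22, adjusted p = 0.0873), a call lost without R98S clone 11, R98S clone 13, WT clone 29 or WT clone 36. A single call remained without R98S clone 11, without R98S clone 13 or without WT clone 29, and 2 without WT clone 36. Of 20 histone genes, likewise chosen after their values were seen, 4 were higher (20% called, against 6.94% of all genes). *H1f0*, a linker histone with polyA mRNA, was at 30561, 26122 and 25382 against 19053, 12070.0 and 16209 (0.81 ± 0.21, adjusted p = 0.0661), and none of the 4 calls remained without R98S clone 11 or without WT clone 36. Proteasome subunits (3 of 48 called), respiratory chain subunits (2 of 100), chaperones (6 of 84), cyclins and their kinases (3 of 45) and DNA repair genes (5 of 105) were called no more often than 7.14% of their tested members. All but the DNA repair genes are lists drawn up after the values had been seen.

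The changed transcripts with the highest levels per kb of exon were read from 8 genes in each direction. Among the higher ones, *Ccrn4l* (nocturnin), whose protein removes a phosphate from NADP cofactors, was at 33072, 51217 and 44254 in the R98S clones and 11327, 14107 and 18037 in the WT clones (log2 fold change 1.57 ± 0.24, adjusted p = 0.00657), a level per kb of 4020.2 against 1359.6. *Ivns1abp*, a kelch protein, was at 19889, 15087 and 14186 against 6209, 7219 and 6006 (1.33 ± 0.19, adjusted p = 0.00465), and *Arl14ep* at 17709, 17309 and 8904 against 2479, 4679.9 and 2261 (2.23 ± 0.33, adjusted p = 0.0064). *Arl14ep* had its lowest R98S value in clone 35, still above every WT value. *Galnt6*, which starts O-linked sugar chains, was at 10188, 7593 and 10299 against 3765, 2491 and 5306 (1.33 ± 0.27, adjusted p = 0.0257). Among the lower ones, *Mtap*, which recycles methylthioadenosine to methionine, was at 11322, 8649.9 and 9385 against 17686, 20899 and 25251 (-1.11 ± 0.19, adjusted p = 0.0137), a level per kb of 3033 against 6596. *S100a10*, the partner of annexin A2, was at 3989.9, 2299 and 3714 against 8365, 7037 and 6235 (-1.14 ± 0.23, adjusted p = 0.0269), and *Anxa2* itself was lower (-0.84 ± 0.20, adjusted p = 0.0534). *Bsg* (basigin) and *Hmgb2* differed by -0.76 and -0.75, and neither their calls nor that of *Anxa2* held without R98S clone 11, R98S clone 13, WT clone 29 or WT clone 36. Of 11 tested T cell receptor gene segments, a list drawn up after the values had been seen, 3 were lower (27.3%, against 6.94% of all genes) and none was higher (limma). Among them *Tcrg-C1*, of the gamma chain, was at 814, 993 and 1333 against 2156, 2799 and 2397 (-1.25 ± 0.21, adjusted p = 0.0126), though its segments share sequence.

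The largest changes ran between near absence in 1 genotype and clear expression in the other. *Dlg3* (SAP102), a scaffold protein of synapses (chromosome X, from 100767722 to 100818410 in mm10), was at 192, 159 and 141 in the R98S clones and had no read in the WT clones, at least 156.4-fold higher. *Lrtm2*, a leucine-rich repeat membrane protein (chromosome 6, from 119315133 to 119330766), was at 171, 188 and 110.0 against 0, 1.65 and 0, a ratio of 223.7 (95% counting interval 61.92 to 1847). *Lgals7*, a galectin of skin (chromosome 7, from 28863853 to 28866284), was at 209, 130.2 and 236 against 2.69, 0.825 and 0.784 (182.9, 62.59 to 887). *Itih5*, *Fam71b* and *BC064078* were between 74.5 and 200.3 in the R98S clones and under 3 in the WT clones. In the other direction *Fgf23*, a bone hormone that lowers phosphate (chromosome 6, from 127072902 to 127081408), was at 0, 1.64 and 0.86 in the R98S clones and 333, 189 and 1675 in the WT clones, a ratio of 889.6 (95% counting interval 304.4 to 4314). *Ank3* (ankyrin G), which anchors membrane proteins to spectrin (chromosome 10, from 69398773 to 70027438), was at 1.59, 0 and 0.86 against 110.1, 329.9 and 195 (257.1, 87.99 to 1247). *Ptplad2*, a dehydratase of long fatty acids, was at 0, 1.64 and 15.5 against 201, 1015 and 597 (-7.14 ± 0.94, adjusted p = 0.00323), and *Gas7* at 0.794, 3.28 and 3.44 against 363, 149 and 504 (-6.54 ± 0.56, adjusted p = 0.000297). *Cask*, a scaffold protein of the same family as *Dlg3*, was at 2.38, 4.09 and 47.3 against 435, 783 and 549 (-5.93 ± 0.83, adjusted p = 0.00477). None of these genes had a tested RPF value, and a gene with no footprint in any single library is not listed for RPF.

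Across the called genes with an RPF value, footprints moved with the mRNA. Every gene listed for RPF had reads in all 6 footprinting libraries, so genes nearly absent in either genotype could fall outside this comparison. Of the 344 higher genes, 240 were tested in RPF. Of these, 235 had the same sign and 115 were called higher there as well, where 7.76% of all genes were called and 3.13% were higher. Of the 443 lower genes, 353 were tested. Of these, 348 had the same sign and 230 were called lower, where 4.62% of all genes were. None was called in the opposite direction (limma). Opposite signs were found for 10 genes: *Ccna2*, *Hist1h1c*, *Slc38a6*, *Kif24* and *Rab3gap1* among the higher and *Rfx2*, *Arl2bp*, *Cln6*, *Minpp1* and *Lars2* among the lower genes. *Ccna2* (cyclin A2) was at 10442, 6262 and 9960.3 in the R98S clones and 3537, 5422 and 4202 in the WT clones in mRNA (1.005 ± 0.24, adjusted p = 0.0516) with an RPF change of -0.12 ± 0.21, adjusted p = 0.786, and its mRNA call was lost without R98S clone 11, R98S clone 35 or WT clone 36. Both readouts come from the same clones, so they are not independent.

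Chromosomes differed in the number and direction of called genes. Chromosome 8 had 49 lower and 6 higher genes among 633 tested, and chromosome 3 had 40 lower and 11 higher among 507. Chromosomes 7 (59 higher, 19 lower, of 893) and 4 (46 higher, 16 lower, of 712) leaned the other way. The median log2 fold change of all tested genes was -0.22 on chromosome 8, -0.29 on chromosome 3, 0.19 on chromosome 7 and 0.19 on chromosome 4. The medians of single clones differed by chromosome. On chromosome 3 they were 0.096, -0.302 and -0.187 in R98S clones 11, 13 and 35 and between 0.088 and 0.157 in the WT clones, relative to the mean of the 6 clones. R98S clone 13 was raised on chromosomes 2 and 11 (0.278 and 0.266), and WT clone 29 was lowered on chromosome 12 (-0.232). With each clone's chromosome medians removed, 283 genes were higher and 407 lower. By list, 10 of 15 immediate early, 4 of 6 cholesterol, 4 of 8 ribosome assembly and 1 of 3 proteasome calls then remained. Of tyrosine kinases and adaptors 13 of 15 calls remained, and of Fc receptors and C-type lectins 10 of 10. Whether chromosome copy number differs between the clones was not tested.

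**Figure D5:**
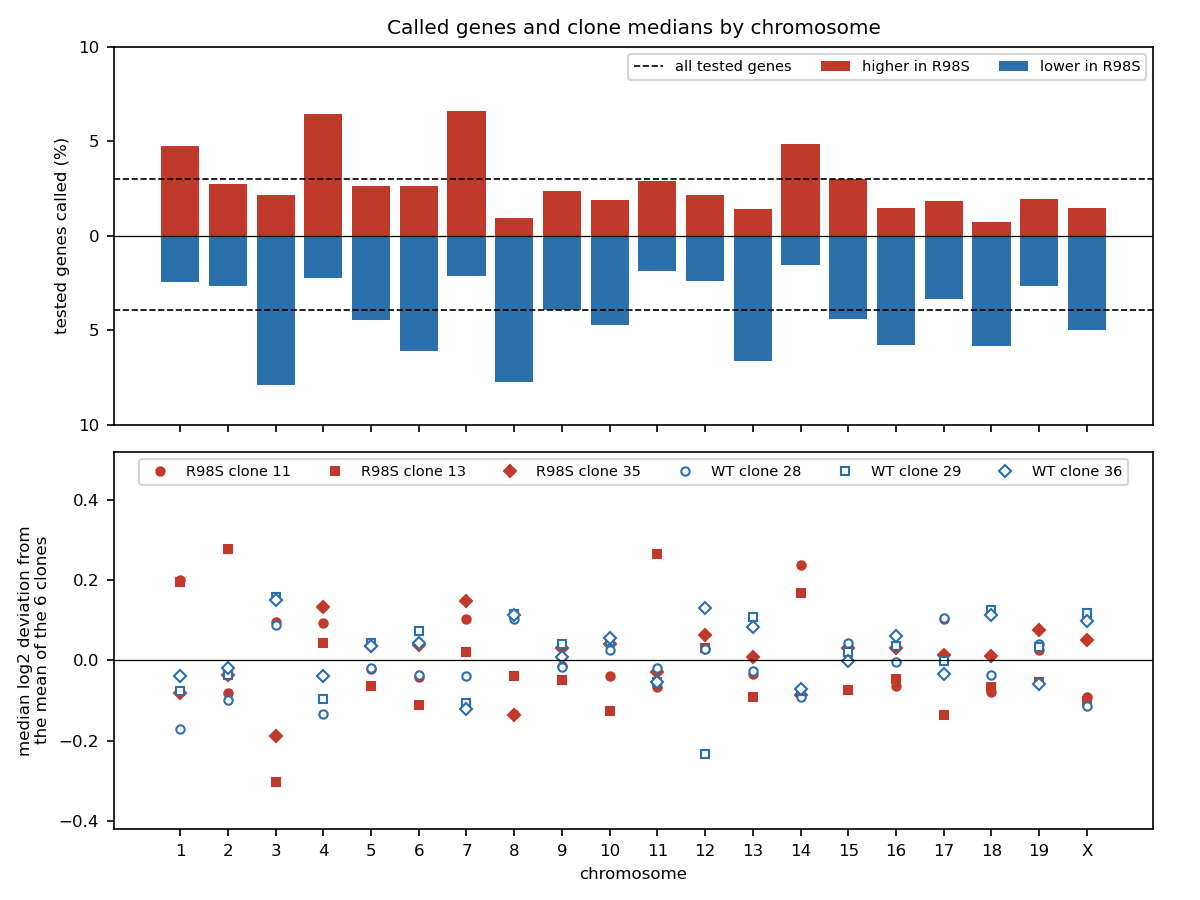
The upper panel gives, for each chromosome, the percentage of tested genes called higher (red, upward) or lower (blue, downward) in R98S clones, with the shares over all genes as dashed lines (3.03% and 3.91%). The lower panel gives the median log2 deviation of each clone's genes from the mean of the 6 clones, with filled red symbols for R98S and open blue symbols for WT clones; R98S clones 13 and 35 lie below 0 on chromosome 3.

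Some neighbours moved together. A run of consecutive tested genes called in the same direction lay on chromosome 1 and included *Sele*, *Selp*, *F5* and *Slc19a2*, all lower. Beside the selectins it holds coagulation factor V, at 7.94, 6.55 and 5.16 in the R98S clones and 21.5, 51.1 and 81.5 in the WT clones (-2.62 ± 0.55, adjusted p = 0.0307), and the thiamine transporter *Slc19a2*, at 942, 1051 and 922 against 1885, 1335 and 1529.7 (-0.69 ± 0.18, adjusted p = 0.0755). Another lay on chromosome 5 between 138225898 and 138312393 (mm10) and held *Nxpe5*, *Lamtor4*, *BC037034* and *Stag3*, again all lower. *Lamtor4*, a subunit of the lysosomal Ragulator complex that serves mTORC1, was at 973, 775 and 1326 against 3647, 1776 and 1997 (-1.23 ± 0.29, adjusted p = 0.0518), and *Stag3*, a meiotic cohesin, at 26.2, 13.1 and 21.5 against 115, 46.2 and 133 (-2.14 ± 0.47, adjusted p = 0.0372). A further 8 runs held 3 genes each, among them *Clec4d*, *Clec4e* and *Cd163* on chromosome 6 and the higher *Crebzf*, *Tmem126a* and *Tmem126b* on chromosome 7. Overlapping genes in a run can share reads. Without R98S clone 13 or WT clone 36 the calls of *F5*, *Slc19a2*, *Lamtor4*, *BC037034*, *Stag3*, *Cd163*, *Crebzf*, *Tmem126a* and *Tmem126b* were lost, so that both of the first runs were shorter.

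Some genes set 1 clone apart from the other 5. *Il18*, a cytokine, was at 929.6 in R98S clone 11 and had no read in any other clone. *Frem1*, a basement membrane protein, was at 2434 in R98S clone 13 and at most 3.13 elsewhere. *Cc2d2a*, a cilium protein, was at 263 in R98S clone 35 and at most 3.28 elsewhere. *Clmp*, an adhesion molecule, was at 1703 in WT clone 28, where *Cd14*, a receptor of lipopolysaccharide, was at 429.7 and elsewhere at most 4.91. *Creb5* was at 481 in WT clone 29 and *Atp2b4*, a calcium pump, at 556 in WT clone 36. By a gap of at least 3 on the log2 scale, 5, 2 and 5 genes were highest in R98S clones 11, 13 and 35 alone and 8, 1 and 3 in WT clones 28, 29 and 36, and 4, 2 and 0 and 7, 1 and 0 were lowest there. *Cd69* is among them, since R98S clone 13 lay far below the other R98S clones, although every R98S value was below every WT value and it was called lower.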

How the data were processed

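Polyadenylated RNA of 3 R98S and 3 WT clones was sequenced, 1 library per clone. The authors aligned reads to mm10 with TopHat2 2.0.11 per the labels, kept primary alignments with a mapping quality of at least 10, counted reads over exons and deposited signal values, gene counts divided by the DESeq2 size factor of each library. All nonzero values (100% per library, tolerance 1e-06) equalled whole numbers of reads, which were recovered for counting intervals (95%, exact Poisson, counting error only) and for DESeq2 1.42.0 and edgeR 4.0.16 as alternatives. RPF values were deposited in the same unit, from reads over coding sequences.

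Log2(value + 1) was compared with limma 3.58.1 (R 4.3.3) with a variance trend, for genes with a mean of at least 10, with p-values adjusted over all of them and a threshold of 0.1. With 3 against 3 clones an exact permutation test cannot go below 0.1, so none was used. On simulated reads with 200 of 11279 genes changed by 1.5 on the log2 scale, limma called 189 of them, with 33 false calls. The simulation gave all genes 1 common dispersion (0.0645) and no shifts of single clones or chromosomes. It shows that the fit runs as intended and does not give the error rate in these clones. The alternatives were other pseudocounts, filters, scalings and tools, thinning, removal of chromosome medians, and each clone left out.

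The members and lists were chosen with earlier results of these data known. Named genes are the 12 largest rises and falls with a mean of at least 100 in the higher genotype, up to 3 per function list and direction, the 8 with the highest level per kb and direction, genes of 1 clone, and cell markers. Some genes covered by this rule are not reported here, though they count in the lists. Set aside were 35 genes that the study names or that lead comparisons of the whole series, and predicted models. The lists said to have been drawn up after their values were seen, other list members, genes of the runs and genes whose RPF had the opposite sign are not covered by it and were picked with their values in view. Positions come from GENCODE and promoters from RefSeq, both of the files' build, to which 36860 symbols matched directly and 1007 through synonyms. A fold against a genotype with no read uses a floor of 3 reads over its clones and is a lower bound.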

Additional observations from a re-analysis of the deposited data

How the results depend on the processing

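The counts of 344 higher and 443 lower genes were within 1.5 times of these values under other pseudocounts, filters on low values, TMM factors, edgeR, thinning to the shallowest library and removal of chromosome medians. DESeq2 on recovered reads called 578 higher and 705 lower genes, and library weights 1454 and 1505; the cause was not tested. Leaving out 1 clone gave between 130 and 491 higher and between 182 and 622 lower genes, with the lowest counts without R98S clone 11 (130 higher, 213 lower), R98S clone 13 (133, 182) and WT clone 36 (168, 192). Of 338 called genes named or listed, none changed sign in 5355 pairs of gene and alternative; 947 of these pairs fell short of the threshold, and 134 genes were called under each of the 16 alternatives. Removal of chromosome medians lost 68 of the 338 calls. The added lists were tried under the same alternatives, chosen after seeing the data. No paired analysis was possible because the groups compared share fewer than 2 clone numbers. Genes with few reads are limited by the depth of WT clone 28.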
